A study of Rattus norvegicus with 6 samples.

Results

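Interferon regulatory factors (IRF) and signal transducers and activators of transcription (STAT) are the transcription factors that carry interferon and cytokine signals to the genome. The 9 genes described here, Irf1, Irf2, Irf3, Irf7, Irf8, Irf9, Stat2, Stat3 and Stat4, were taken by symbol from a table of 30560 genes, and the choice was made with earlier results of these data known. The RNA came from primary fibroblasts of the ventricles of newborn Sprague-Dawley rats (1 to 2 days old), enriched by preferential attachment and kept overnight without serum. One group was transfected with a negative control oligonucleotide (NC) and the other with an antagomiR, a modified antisense oligonucleotide, against miR-142-3p, both at 50 nM and with the same lipid reagent. Each group had 3 libraries, and whether these go back to separate isolations is not in the labels. The p-values therefore cover only how far these libraries lie apart, which may be technical. PolyA libraries do not measure the mature microRNA, and its silencing was not checked here. The targeted microRNA is shown because its seed (bases 2 to 8, in capitals) is what the study set out to block. Its sequence is RefSeq's, on chr10:73055155-73055177 of GRCr8, plus strand.
rno-miR-142-3p: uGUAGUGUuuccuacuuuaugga

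In the textbook pathway, sensors of foreign nucleic acid activate IRF3, which is made constitutively, and IRF7, which is itself induced by interferon. Type I interferon then acts through the kinases JAK1 and TYK2 on STAT2, which together with IRF9 is part of the complex ISGF3 that binds the interferon-stimulated response element. Interferon gamma acts through JAK1 and JAK2, and STAT dimers bound to the gamma-activated sequence induce IRF1. IRF2 was first known as an antagonist of IRF1, and IRF8 is a factor of macrophages and other myeloid cells. STAT3 is the main factor downstream of the interleukin 6 family, and STAT4 that of interleukin 12.

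Of the 9 genes, 8 had a mean of at least 1 FPKM (fragments per kilobase of gene, scaled to library size) over the 6 libraries and were tested. Irf7, Stat2, Irf1, Irf2, Stat3 and the row named Stat4 rose with the antagomiR, none fell, and Irf3 and Irf8 were not called. A gene is called at an adjusted p under 0.05 by limma on log2(FPKM + 1), with Benjamini-Hochberg adjustment over 12024 tested genes. By that rule 17.5% of all tested genes were higher with the antagomiR and 9.21% lower. In the same 6 members every antagomiR library lay above every NC library, as in 29.2% of tested genes. Fold changes below are antagomiR minus NC on the log2(FPKM + 1) scale, which understates changes of low genes.

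Library totals recovered from the FPKM values ran from 19472409 to 24622667 fragments. All 10 fibroblast markers of a fixed list were expressed, with Col1a1 between 3972 and 4727 FPKM. NC replicate 3 stood apart from the other NC libraries: it had the highest NC value for all 15 tested leukocyte markers and for 41.9% of all tested genes. Without it, 26.6% of tested genes were called higher. The share of higher genes among all calls was 65.6%, against 51.4% with median-ratio scaling and 43.1% with quantile normalization. The latter shifted the all-gene median, 0.06, by -0.11 on the log2 scale. The calls of all 8 members were the same under both scalings.

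**Figure D1:**
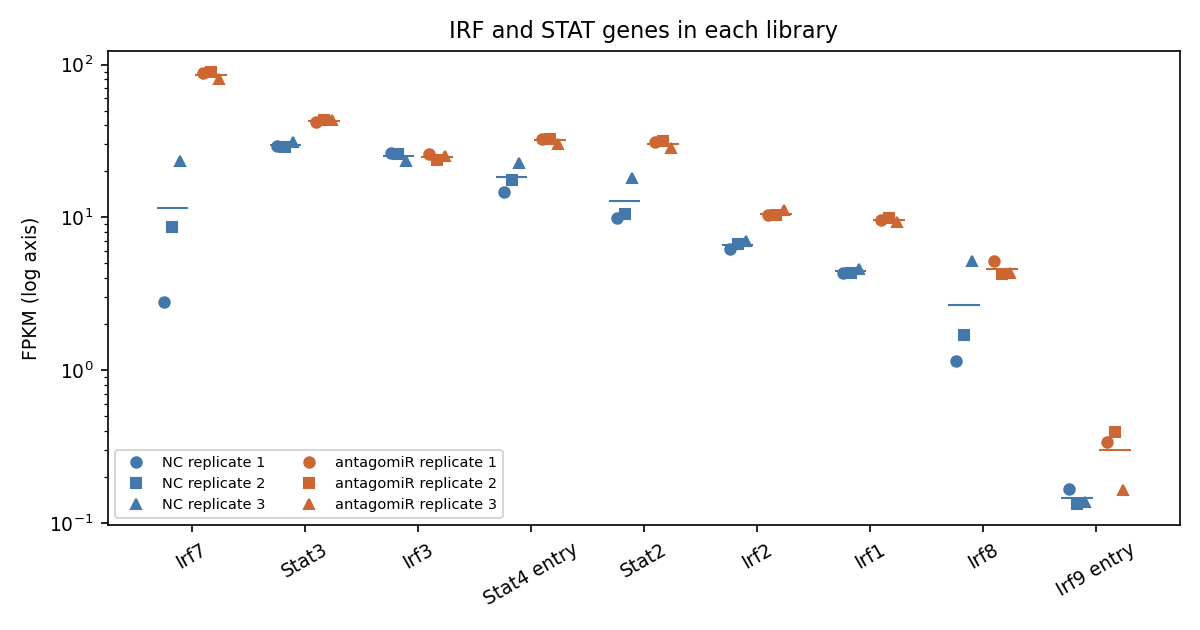
FPKM (log axis) of the 9 IRF and STAT entries in each of 6 libraries, ordered by their mean; blue symbols are NC and orange symbols antagomiR libraries, the symbol shape gives the replicate and the short lines are group means. The NC symbols of Irf7 spread from 2.79 to 23.3 FPKM and those of Irf1 only from 4.33 to 4.59 FPKM, while Irf3 lies at one level in both groups.

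Promoter sequence was looked at because Irf1 and Irf7 rose and their textbook inducers bind known elements. RefSeq windows of 300 bases, from 250 before to 50 after the gene start on GRCr8, matched 8 members, all but Irf2. The interferon-stimulated response element was searched as GAAA, any 2 bases and GAAA again, and the gamma-activated sequence as TTCNNNGAA, each on both strands. The first was found in 1 of the 8 windows, that of Irf7, and in 3.92% of all 33469 windows. The second was found in the windows of Irf1, Irf8 and Irf9, and in 8.87% of all windows. No match of one overlapped a match of the other. The windows of Irf3, Stat2, Stat3 and Stat4 held neither run of letters, which says nothing of binding there. The sequences shown end before the gene start and are written along each gene, with the matches in capitals. For Irf7 (chr1:205800024-205800273, minus strand) the match is the response element in reverse orientation, 69 to 60 bases before the start. For Irf1 (chr10:38417685-38417934, plus strand) it is a gamma-activated sequence 142 to 134 bases before the start. For Irf8 (chr19:65699089-65699148, plus strand) and Irf9 (chr15:33065716-33065775, plus strand), 60 bases around 2 and 1 gamma-activated sequences are shown.
Irf7: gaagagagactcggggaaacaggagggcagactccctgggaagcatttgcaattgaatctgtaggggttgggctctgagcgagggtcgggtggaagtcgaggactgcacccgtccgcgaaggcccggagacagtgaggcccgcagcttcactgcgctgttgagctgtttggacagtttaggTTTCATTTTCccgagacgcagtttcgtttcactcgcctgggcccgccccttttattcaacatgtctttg
Irf1: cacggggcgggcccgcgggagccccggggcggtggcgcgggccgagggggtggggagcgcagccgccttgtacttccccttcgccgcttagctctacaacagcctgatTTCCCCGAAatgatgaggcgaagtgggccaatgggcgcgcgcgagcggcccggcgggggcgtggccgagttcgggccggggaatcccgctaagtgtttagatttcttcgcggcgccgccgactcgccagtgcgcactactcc
Irf8: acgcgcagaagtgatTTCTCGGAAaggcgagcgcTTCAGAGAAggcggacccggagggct
Irf9: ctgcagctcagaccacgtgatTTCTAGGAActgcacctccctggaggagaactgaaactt

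Irf7, the interferon-induced factor that drives interferon alpha genes, had the largest change of the members. Its row (ENSRNOG00000017414) lies on chromosome 1 from 196367361 to 196370832 in mRatBN7.2. NC replicates 1, 2 and 3 read 2.79, 8.65 and 23.3 FPKM, from 109, 421 and 922 fragments. In the antagomiR replicates it was at 87.9, 89.0 and 80.9 FPKM, from 3919, 4399 and 3713 fragments. The groups did not overlap, but the NC libraries differed among themselves by 8.36-fold, and the antagomiR libraries by 1.10-fold. By limma the log2 fold change came to 3.18 ± 0.585 (SE, adjusted p = 0.00765), from 11.6 ± 10.6 to 85.9 ± 4.37 FPKM (SD, n = 3). The ratio of the means was 7.42, and 15.0 without NC replicate 3. Without NC replicate 1 the log2 fold change was 2.50, so its size rests on which NC libraries are taken, while its direction and call did not. Against NC replicate 3 alone the antagomiR mean was 3.69 times higher.

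Irf3, the constitutive relative of Irf7, was not called. Its row (ENSRNOG00000043388, chromosome 1 from 95479821 to 95484935) was at 26.5, 26.0 and 23.4 FPKM in NC and at 26.0, 23.5 and 25.4 FPKM with the antagomiR. The groups overlapped fully. The log2 fold change was -0.02, with a 95% interval from -0.18 to 0.14 (limma adjusted p = 0.877), and its sign changed when single libraries were left out. The row overlaps that of Bcl2l12, an apoptosis-related gene, over 1171 bp. How shared bases were counted is not given in the labels.

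The balance of Irf3 and Irf7 among the 6 IRF entries differed between the groups. Other IRF genes, such as Irf5, are not in this sum, and the Irf9 entry in it need not show the level of Irf9. FPKM are scaled to gene length, so levels of different genes can be set side by side. Irf7 made up 6.77%, 18.2% and 36.7% of the summed FPKM of the 6 IRF entries in NC replicates 1, 2 and 3. It made up 63.1%, 64.7% and 61.7% in the antagomiR replicates. The share of Irf3 went from 64.5%, 54.7% and 36.8% to 18.7%, 17.1% and 19.4%. In NC replicate 3 the levels of both genes were nearly equal, and in all antagomiR libraries Irf7 was the highest of the 9 entries.

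**Figure D2:**
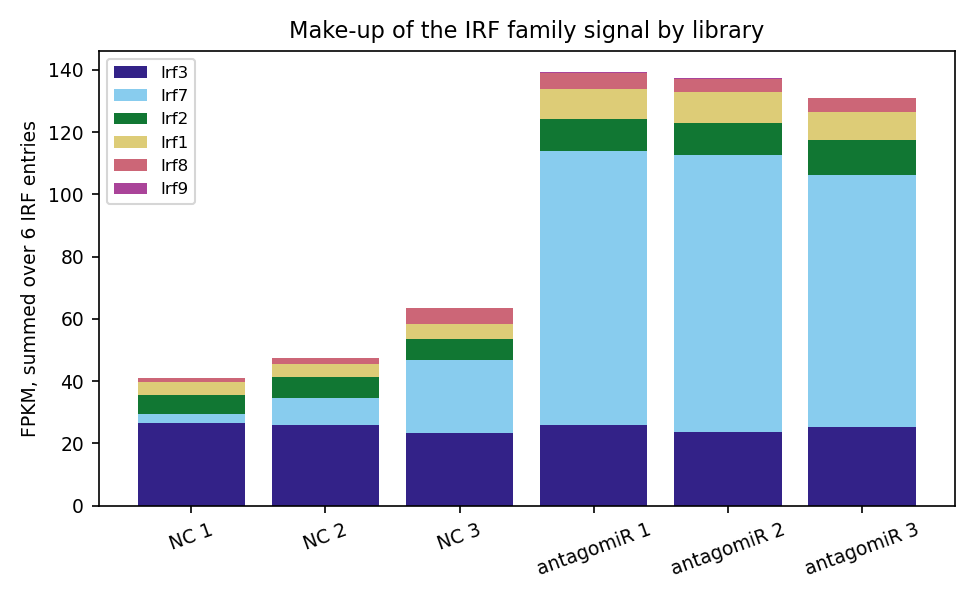
Stacked bars of FPKM (linear axis from 0) of the 6 IRF entries in each library, with a colour for each gene. The Irf3 segment stays between 23.4 and 26.5 FPKM in all bars, while the Irf7 segment is 2.79 to 23.3 FPKM in NC and 80.9 to 89.0 FPKM with the antagomiR.

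Irf1, the factor induced through the gamma-activated sequence, rose by a similar amount in every library. Its row (ENSRNOG00000008144, chromosome 10 from 37916670 to 37924166) was at 4.34, 4.33 and 4.59 FPKM in NC and at 9.59, 9.94 and 9.27 FPKM with the antagomiR. The groups did not overlap, and NC replicate 3 was close to the other NC libraries. The limma estimate was a log2 fold change of 0.97 ± 0.0621 (SE, adjusted p = 0.000111), the smallest adjusted p among the members. The ratio of the means was 2.17, and 2.22 without NC replicate 3.

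Irf2, the relative of Irf1 that can occupy the same element, rose less. It (ENSRNOG00000009824, chromosome 16 from 45439225 to 45550024) was at 6.20, 6.73 and 6.97 FPKM in NC and at 10.3, 10.4 and 11.1 FPKM with the antagomiR. No antagomiR library overlapped with NC, and the ratio of the means was 1.60. In limma the log2 fold change reached 0.60 ± 0.0669 (SE, adjusted p = 0.000916). In NC the level of Irf2 was above that of Irf1 in every library. With the antagomiR their ranges lay close together, with the lowest Irf2 value, 10.3 FPKM, above the highest Irf1 value, 9.94 FPKM.

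Irf8, the myeloid factor, was not called. Its row (ENSRNOG00000017869, chromosome 19 from 48790588 to 48811829) was at 1.14, 1.69 and 5.14 FPKM in NC, from 38, 70 and 173 fragments. It was at 5.14, 4.28 and 4.30 FPKM with the antagomiR, from 195, 180 and 168 fragments. NC replicate 3 was at the upper end of the antagomiR libraries, so the groups overlapped. The log2 fold change was 0.76, with a 95% interval from -0.08 to 1.60 (limma adjusted p = 0.164). Leaving out NC replicate 3 gave 1.21 (limma adjusted p = 0.000284) and so a call, which made 7 members called. In that fit 26.6% of all tested genes were called higher. The exact 95% Poisson intervals, which cover counting error only, were 1.32 to 2.13 FPKM in NC replicate 2 and 4.40 to 5.96 FPKM in NC replicate 3 and did not overlap.

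Leukocyte markers moved with these values. Among 15 tested markers, 7 rose and 0 fell, beside 17.5% and 9.21% of all tested genes. The median log2 fold change of the markers was 1.505, against 0.06 over all tested genes. All 15 rose once NC replicate 3 was left out, a fit in which 26.6% of all tested genes rose. The summed level of the marker list ran from 152 to 770 FPKM in NC and from 1005 to 1121 FPKM with the antagomiR. Adgre1, the marker with the smallest p, which encodes the macrophage surface protein F4/80, read 1.30, 3.37 and 11.4 FPKM in NC and 54.96 to 63.3 FPKM with the antagomiR. Other macrophage genes of the list did not follow it: Mrc1, the mannose receptor gene, read 2.07, 2.60 and 7.96 FPKM in NC and 3.89 to 4.11 FPKM with the antagomiR, and it, Cd68 and the complement genes C1qa, C1qb and C1qc were not called. For these 5 genes all antagomiR libraries lay below NC replicate 3. The T cell gene Cd3e and the B cell gene Ms4a1 were at 0 in all libraries, and Cd79a, another B cell gene, was at no more than 0.180 FPKM. In bulk RNA more cells of a type and more RNA per cell cannot be told apart. The part of leukocyte RNA in the values of Irf7, Irf8, Stat2 and the Stat4 entry was not tested.

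The row named Irf9, the DNA-binding subunit of ISGF3, held almost no fragments and was below the filter. It had 6, 6 and 5 fragments in NC and 14, 18 and 7 with the antagomiR, or 0.166, 0.133 and 0.136 FPKM against 0.339, 0.393 and 0.165 FPKM. The groups overlapped in their exact 95% Poisson intervals, which reached 0.361 FPKM in NC replicate 1. With no filter the log2 fold change was 0.18 (limma adjusted p = 0.158). The row (ENSRNOG00000019478, chromosome 15 from 29095789 to 29101236) lies for 100% of its span inside that of Rnf31, a ubiquitin ligase gene, and RefSeq on GRCr8 places the genes side by side. Bases shared by both rows may have been left out of both counts, which was not tested, so the value need not show the level of Irf9. Rnf31 was at 4.51, 4.99 and 6.20 FPKM in NC and between 7.12 and 7.62 FPKM with the antagomiR (log2 fold change 0.44, limma adjusted p = 0.0215).

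Stat2, the STAT of the type I interferon complex, rose as well. It (ENSRNOG00000031081, chromosome 7 from 702495 to 718967) was at 9.91, 10.5 and 18.03 FPKM in NC and at 31.2, 31.5 and 28.4 FPKM with the antagomiR. NC replicate 3 was the highest of NC but stayed below all antagomiR libraries. By limma the log2 fold change came to 1.23 ± 0.201 (SE, adjusted p = 0.00467). The ratio of the means was 2.37, and 2.97 without NC replicate 3.

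Stat3, the factor of interleukin 6 signalling, was the highest member in NC and rose the least of those called. Its row (ENSRNOG00000019742, chromosome 10 from 85811218 to 85863057) was at 29.5, 29.1 and 30.9 FPKM in NC and at 41.9, 43.1 and 43.0 FPKM with the antagomiR. Both groups were tight and did not overlap. The limma estimate was a log2 fold change of 0.50 ± 0.0484 (SE, adjusted p = 0.000504), and the ratio of the means was 1.43.

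The row named Stat4 (ENSRNOG00000014079, chromosome 9 from 49419340 to 49588540) rose as well, but its symbol may not describe all that was counted. It was at 14.6, 17.5 and 22.7 FPKM in NC and at 32.7, 32.6 and 30.3 FPKM with the antagomiR, without overlap. In limma the log2 fold change reached 0.79 ± 0.143 (SE, adjusted p = 0.00690). The row spans 169201 bp, whereas RefSeq on GRCr8 gives Stat4 115907 bp, so the row may count fragments from outside that gene, which was not tested. The receptor genes that signal to Stat4, Il12rb1 and Il12rb2, were at no more than 0.0374 and 0.0408 FPKM in any library.

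**Figure D3:**
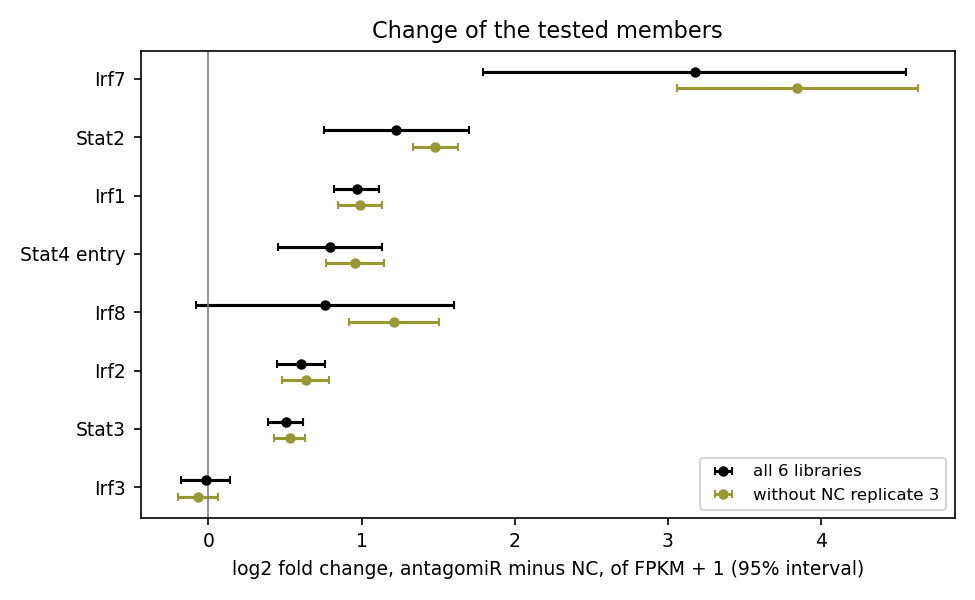
Log2 fold change of FPKM + 1, antagomiR minus NC, of the 8 tested members (points) with 95% intervals from limma (bars), from all 6 libraries in black and without NC replicate 3 in olive. The intervals of Irf7, Irf8, Stat2 and the Stat4 entry narrow without that library, and that of Irf8 then lies above 0; that of Irf3 includes 0 in both fits.

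The members thus differed in how far the NC libraries lay apart. The highest NC value was 1.06 times the lowest for Irf1 and for Stat3, 1.13 times for Irf2 and for Irf3, 1.56 times for the Stat4 entry, 1.82 times for Stat2, 4.50 times for Irf8 and 8.36 times for Irf7. Among the antagomiR libraries this ratio was between 1.03 and 1.20 for all 8. Ordered by level, NC ran Stat3, Irf3, Stat4 entry, Stat2, Irf7, Irf2, Irf1, Irf8 and Irf9 entry. Among neighbours in that order, the ranges of the Stat4 entry and Stat2, of Stat2 and Irf7, of Irf7 and Irf2, and of Irf1 and Irf8 overlapped, and the wide range of Irf7 also took in or met those of the Stat4 entry, Irf1 and Irf8. With the antagomiR the order was Irf7, Stat3, Stat4 entry, Stat2, Irf3, Irf2, Irf1, Irf8 and Irf9 entry, and only the ranges of the Stat4 entry and Stat2 overlapped.

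Profiles of log2(FPKM + 1) over the 6 libraries were each centred on their own mean. Among tested genes with a symbol, those most like a member had the smallest root mean square difference from it. For Irf7 these were Mx2 (0.13), Bst2 (0.22) and Adgre1 (0.26). Mx2 and Bst2 encode antiviral proteins, and Adgre1 is a leukocyte marker. Mx2, Bst2 and Adgre1 all had their lowest value in NC replicate 1, at 0.294, 7.46 and 1.30 FPKM. They were picked for profiles like that of Irf7, so a shared lowest library follows from the choice. For Irf8 they were Tnfaip8l2 (0.04), Vsir (0.09) and Gpnmb (0.11), and for Stat2 Ptpro (0.06), Nrros (0.08) and RGD1563400 (0.08). For Irf1 they were Ca13 (0.03), RT1-M3-1 (0.05) and Gbp6 (0.05), and for Irf2 Erap1 (0.03), Acvrl1 (0.03) and Alpk1 (0.04). Stat3 was followed by Castor2, Zswim4 and Smpd1 (all 0.03), the Stat4 entry by Sephs2, Tifa and Cpt1a (0.05 to 0.06) and Irf3 by Cul1, Eloc and Kifbp (all 0.02). These distances describe the 6 libraries and carry no test.

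Most tested receptors and kinases above these factors rose, while the interferon genes were at or near 0. All 5 tested interferon receptor genes rose (median 0.48), beside 17.5% of all tested genes (median 0.06). The weakest call, that of the interferon lambda receptor gene Ifnlr1 (limma adjusted p = 0.0361), was lost under most alternatives, both scalings among them, which left 4. Ifngr1, the ligand-binding chain of the interferon gamma receptor, went from 52.1, 54.7 and 71.9 FPKM to 153, 156 and 164 FPKM (log2 fold change 1.40, limma adjusted p = 0.000292). Ifngr2, Ifnar1 and Ifnar2 rose by 0.66, 0.48 and 0.39. Ifng was listed at 0 in all libraries, and Ifnb1 at 0 in 5 libraries and at 0.0811 FPKM in antagomiR replicate 1. The receptor chain Il10rb was listed at 0 in all libraries too, and a listing at 0 in this table need not show the level in the cells. Its row (chromosome 11 from 30652096 to 30668074) lies inside that of Ifnar2 (30613767 to 30668124). What this overlap did to the values of Ifnar2 and Il10rb was not tested. Of the Janus kinases Jak2 rose most, from 5.36, 5.67 and 6.03 FPKM to 15.9, 16.9 and 17.8 FPKM (log2 fold change 1.42, limma adjusted p = 4.46e-05). Jak1 rose by 0.35, and Tyk2, at -0.10, was not called.

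In the interleukin 6 axis, upstream of Stat3, 4 of 10 tested genes rose and 1 fell, beside 17.5% and 9.21% of all tested genes. The oncostatin M receptor gene Osmr went from 7.99, 8.82 and 7.66 FPKM to 26.5, 27.3 and 27.6 FPKM (log2 fold change 1.62, limma adjusted p = 1.83e-05). Il6 rose by 2.10 and the leukaemia inhibitory factor receptor gene Lifr by 0.93, and Cntf, a ligand of this family, fell by 0.58. The median of the list was 0.21.

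Among the adaptors and kinases between nucleic acid sensors and IRF3 or IRF7, 7 of 10 tested rose and 0 fell (median 0.41). Of all tested genes 17.5% rose and 9.21% fell (median 0.06). Ikbke, the inducible IRF kinase, went from 5.21, 4.97 and 3.97 FPKM to 7.42, 7.04 and 7.94 FPKM (log2 fold change 0.57, limma adjusted p = 0.00608). The adaptor genes Traf3 and Tank rose by 0.44 and 0.57, and Irak4, a kinase gene of Toll-like receptor signalling, rose by 0.38. Tbk1, the constitutive IRF3 kinase, was at 8.58, 8.62 and 8.55 FPKM in NC and between 8.84 and 9.79 FPKM with the antagomiR and was not called (limma adjusted p = 0.359).

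Some inhibitors of the pathway rose as well. Of 17 tested inhibitors 8 rose and 0 fell (median 0.19), beside 17.5% and 9.21% of all tested genes (median 0.06). Socs3, which blocks the receptors that feed Stat3, went from 1.33, 1.32 and 2.00 FPKM to 7.38, 6.98 and 6.81 FPKM (log2 fold change 1.67, limma adjusted p = 0.000138). Socs1, the inhibitor of interferon receptors, rose by 1.15, and the phosphatase genes Ptpn1 and Ptpn2 by 0.67 and 0.47. The 4 PIAS genes tested, whose products bind STAT proteins in the nucleus, were not called, with log2 fold changes from -0.08 to 0.19.

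Genes known as targets of the factors were read from 3 lists, whose counts were not tested against each other. Beside all 3 lists, 17.5% of all tested genes rose and 9.21% fell, with a median of 0.06. Of 20 tested ISGF3 targets 18 rose and 0 fell, and their median log2 fold change was 1.72. Ifit3, an antiviral protein gene, was at 0.302, 0.425 and 1.57 FPKM in NC and at 10.5, 11.5 and 10.01 FPKM with the antagomiR. Mx1, Oasl and Rsad2 rose by 2.78, 2.33 and 1.86. As for Irf7, 18 of the 20 had their highest NC value in NC replicate 3. The same held for 14 of 15 tested interferon gamma and IRF1 targets, all 15 tested leukocyte markers and 41.9% of all tested genes. The uncalled targets were Ifi27 and Isg20, and Isg15 was listed at 0 in all libraries.

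Of 15 tested targets of interferon gamma and IRF1, 14 rose and 1 fell, with a median of 1.54. The guanylate-binding protein gene Gbp5 was at 0.711, 0.962 and 1.44 FPKM in NC and at 13.6, 15.0 and 14.4 FPKM with the antagomiR (log2 fold change 2.92, limma adjusted p = 3e-05). B2m, the class I light chain gene, Cd274, which encodes the checkpoint ligand PD-L1, and Gbp2 rose by 1.92, 1.48 and 2.57. The gene that fell, by 0.72, was Il15, a cytokine gene, from 27.3, 28.2 and 22.8 FPKM to 15.9, 14.9 and 15.4 FPKM (limma adjusted p = 0.00118).

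Of 19 tested STAT3 targets 11 rose and 1 fell, with a median of 0.42, and Osmr and Socs3 are counted here again. Lbp, a lipopolysaccharide-binding acute phase gene, went from 3.74, 3.61 and 4.39 FPKM to 22.1, 22.7 and 23.4 FPKM (log2 fold change 2.27, limma adjusted p = 6.94e-06). Cebpd, an acute phase transcription factor gene, rose by 2.10. The immediate early gene Fos fell by 0.44 (limma adjusted p = 0.0269), a call that was lost with no filter, without NC replicate 2 and without antagomiR replicate 2 or 3. Myc and Mcl1 were not called, at 0.09 and 0.06. Without NC replicate 3 the number of risen genes was 19 of 20 ISGF3 targets, 15 of 16 interferon gamma and IRF1 targets and 13 of 19 STAT3 targets. In that fit 26.6% of all tested genes rose.

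**Figure D4:**
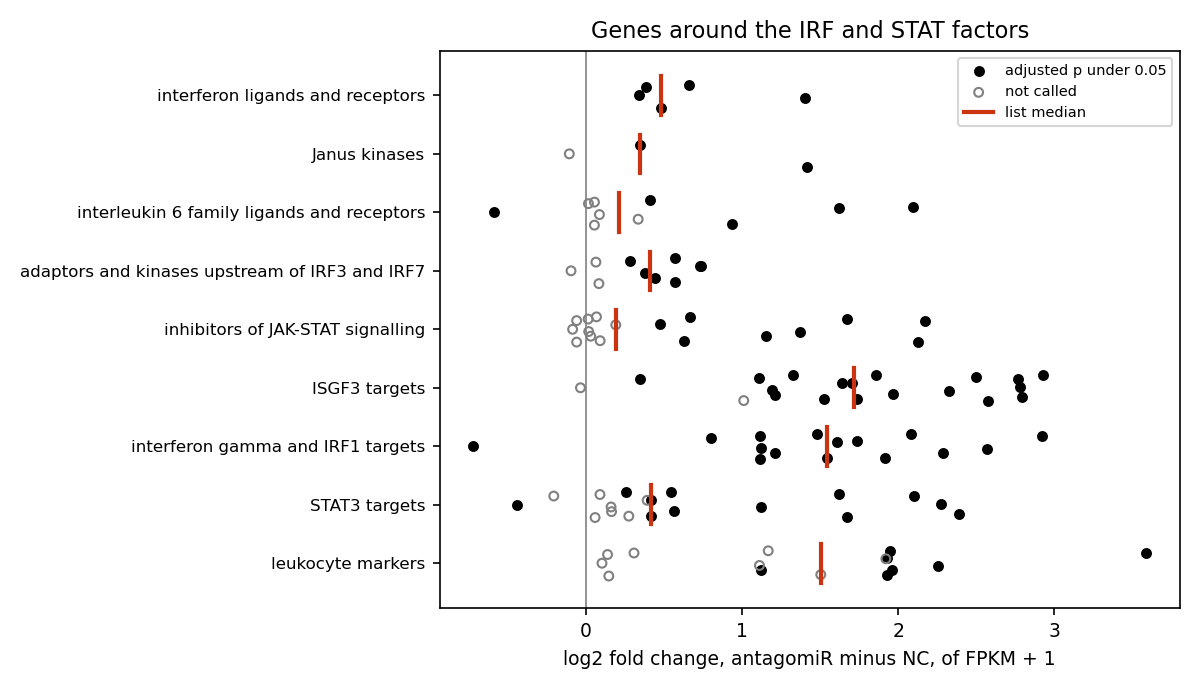
Log2 fold change of FPKM + 1, antagomiR minus NC, of the tested genes of 9 lists (the interleukin 12 family, with 1 tested gene at 2.36, is not drawn); filled points passed an adjusted p under 0.05 in limma, open points did not, and red lines are list medians. The ISGF3 targets and the interferon gamma and IRF1 targets have the highest medians among the lists drawn, 1.72 and 1.54. The leukocyte markers follow closely at 1.505. The inhibitors split into a risen group and a group near 0.

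Relatives and partners outside the 9 genes were read for comparison. Of 9 tested, 6 rose and 0 fell (median 0.39), beside 17.5% and 9.21% of all tested genes (median 0.06). Irf5, an IRF of myeloid cells, was at 3.81, 4.54 and 8.79 FPKM in NC and between 12.7 and 14.04 FPKM with the antagomiR (log2 fold change 1.17, limma adjusted p = 0.0125). Spi1, whose product PU.1 binds DNA together with IRF8, was at 2.18, 3.94 and 15.1 FPKM in NC and between 31.1 and 32.9 FPKM with the antagomiR (log2 fold change 2.37, adjusted p = 0.0163). Batf and Nmi, partners of IRF and STAT proteins, rose by 1.60 and 0.77. Stat5a rose by 0.39, while Stat5b, at 0.06, was not called, and Irf4 and Stat6 were below the filter.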

How the data were processed

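The deposited table held FPKM for 30560 genes, 1 column per library, in 3 NC and 3 antagomiR libraries. Per the submitters' processing notes, the tools were HISAT2, HTSeq, edgeR, cutadapt and FastQC, without versions, on the build mRatBN7.2. The annotation release, strand setting and counting mode are not given in the sources used here, so overlapping and antisense genes cannot be told apart. Columns were assigned by the names in the labels, and 0 were left over.

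Fragment counts were recovered from the FPKM values: totals from short genes (under 400 bp), then for each gene the smallest length that made all values whole within 0.01. This worked for 100% of 20134 genes above 0. Chi-square values per degree of freedom between libraries of a group ran from 3.52 to 31.1, so no library was counted as a repeat.

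The test was limma 3.58.1 in R 4.3.3 (trend, two-sided) on log2(FPKM + 1) over the 12024 genes whose mean reached 1 FPKM. The scripts were tested on simulated data. Intervals and Poisson limits are at 95%, and the latter cover counting error only. Alternatives were other pseudocounts, filters, scalings, a replicate block, voom on recovered fragments and leaving out each library. Proteins were not used here, and some items are not reported here.

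The members, the 14 gene lists and the tests were chosen with earlier results of these data known. From each list described, up to 4 tested genes with the smallest p were named, and for each member the 3 most similar tested genes with a symbol. Rnf31, Tbk1, Il10rb, Ifng, Ifnb1, Il12rb1, Il12rb2, Ifi27, Isg20, Isg15, Il15, Fos, Myc, Mcl1, Spi1, Stat5a, Stat5b, Irf4, Stat6, the PIAS genes, Ifnlr1, Mrc1, Cd68, C1qa, C1qb, C1qc, Cd3e, Ms4a1, Cd79a, Col1a1, Col1a2, Vim and Pecam1 fall outside that rule and were chosen after their values were seen.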

Additional observations from a re-analysis of the deposited data

How the results depend on the processing

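In every alternative fit that was run Irf1, Irf2, Irf7, Stat2, Stat3 and the Stat4 entry stayed called up and no member was called down. Irf8 was called only without NC replicate 3, at 1.21. The log2 fold change of Irf3 turned positive without NC replicate 1 (0.0165), without NC replicate 2 (0.001) and without antagomiR replicate 2 (0.0226), never with a call, and leaving out 1 library gave -0.0701 to 0.0226. Over all alternatives 107 member values kept direction and side of the threshold, 3 changed sign and 1 gained a call.

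The 3216 called genes became 1866 to 4877 when 1 library was left out, with 1198 to 3200 higher and 668 to 1677 lower. The extremes were without antagomiR replicate 3 and without NC replicate 3. Quantile normalization gave 1869 lower genes and called 1 Janus kinase lower. At a minimum of 5 FPKM, where fewer genes are tested, 2 interleukin 6 family genes were called up and 0 down, and 4 inhibitors up. With no filter 0 STAT3 targets were lower. Leaving out 1 library gave 1 to 2 Janus kinases up, 0 to 2 STAT3 targets down and 3 to 6 relatives up. The cause was not tested.

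Libraries of equal replicate number had correlations of -0.16, -0.06 and -0.04 between their deviations from group means. Between libraries of unequal number these ran from -0.06 to 0.13. So few libraries cannot tell whether those of equal number share an isolation. With the replicate block 2380 genes and 6 members were called. The Irf9 entry rests on 5 to 18 fragments a library and was below the filter on low values.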

Other observations

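Endothelial markers were low, and cardiomyocyte and fibroblast markers were mixed in direction. Of 7 endothelial markers only Tek, an angiopoietin receptor gene, passed the filter, from 1.96, 2.02 and 1.57 FPKM in NC to between 2.46 and 2.65 FPKM with the antagomiR (limma adjusted p = 0.0417), and Pecam1 stayed at or below 0.249 FPKM. Of 6 tested cardiomyocyte markers 1 rose and 1 fell, beside 17.5% and 9.21% of all tested genes. Myh7, a myosin heavy chain gene, rose by 0.39 and Tnnt2, cardiac troponin T, fell by 0.42. The summed level of the cardiomyocyte list was 389 to 431 FPKM in NC and 296 to 356 FPKM with the antagomiR. Of the 10 fibroblast markers 6 rose and 2 fell, again beside 17.5% and 9.21% of all tested genes. Pdgfra, a growth factor receptor gene, was up by 1.59 and Dcn, which encodes decorin, by 1.37. Those that fell were Col1a2, a collagen I chain gene, by 0.31 (limma adjusted p = 0.0267) and Vim, which encodes vimentin, by 0.28 (limma adjusted p = 0.0351). The summed level of the fibroblast list was 12699 to 12914 FPKM in NC and 11973 to 12221 FPKM with the antagomiR.

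In the interleukin 12 family only Ebi3, a subunit shared by several cytokines of the family, was tested. It was at 0.751, 0.781 and 5.37 FPKM in NC and at 14.8, 11.6 and 12.6 FPKM with the antagomiR (log2 fold change 2.36, limma adjusted p = 0.0108).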
